A study of Mus musculus with 5 samples.

Results

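In WT Th9 cells, 842 genomic places carried a PU.1 summit with both a BATF summit and an Input summit within 500 bp. They are 9.61% of the 8759 PU.1 summits on chr1 to chr19 and chrX, out of 8947 PU.1 summits in all. They were selected by the position of the summits in these 3 lists, so their scores and the distances between their summits are described here without any test. A summit is the single base at which a peak of ChIP-Seq fragments is highest. Input is sheared chromatin sequenced without an antibody, and the goat and rabbit immunoglobulin (Ig) libraries were made with non-specific control immunoglobulin. The cells came from wild-type C57/Bl6j mice aged 7 weeks. Naive CD4 T cells of spleen and nodes were activated on plates coated with CD3 and CD28 antibodies, with IL-4 at 20 ng/ml, TGF-β at 2 ng/ml and an antibody that blocked IFNγ. The PU.1, BATF, Input, rabbit Ig and goat Ig libraries, 5 in all, share this genotype and treatment, and each exists as 1 library without a replicate. Summit lists hold no expression values, so the Th9 identity of the cells was not checked here.

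PU.1 is an Ets-family transcription factor and BATF a basic leucine zipper protein that binds AP-1 sites with a JUN partner, and both are known regulators of the Th9 programme. An antibody enriches DNA near its protein, whereas Input fragments have no such selection. Peaks in Input are known to arise where the cell holds more copies of a sequence than the reference assembly shows, as in the satellite DNA of centromeres and in telomeric repeats, and where reads from many copies are placed at a few of them. For the present libraries this was not tested. Mouse chromosomes carry major satellite DNA beside the centromere, minor satellite DNA at the centromere itself, and TTAGGG repeats at their ends.

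The sequence around the shared sites fell into a few kinds, and examples of 4 kinds are printed because they show what PU.1, BATF and Input summits had in common. Each is the 200 bp window around the PU.1 summit on the plus strand of GRCm38.p6, and each is the site with the highest PU.1 score of its group, the CENP-B box site that of windows in no named group. For the CA repeats, the site is the highest among windows whose repeat unit is AC or GT. In the satellite-like window at chr9:35305302-35305501, within an intron of the long non-coding RNA gene Gm33838, capitals mark the 200 bases that aligned to the 234 bp tandem array of chromosome 9 with 95% identity.
Satellite-like: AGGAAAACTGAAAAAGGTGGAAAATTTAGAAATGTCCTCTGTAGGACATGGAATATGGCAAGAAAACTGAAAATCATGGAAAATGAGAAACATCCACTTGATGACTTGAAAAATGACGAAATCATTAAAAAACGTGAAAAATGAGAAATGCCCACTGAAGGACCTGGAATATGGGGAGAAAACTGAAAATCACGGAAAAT
The window at chr6:103649101-103649300 lies in an intron of Chl1, a neural cell adhesion gene. Capitals mark a match to the CENP-B box, the site that the centromere protein CENP-B binds in minor satellite DNA.
CENP-B box: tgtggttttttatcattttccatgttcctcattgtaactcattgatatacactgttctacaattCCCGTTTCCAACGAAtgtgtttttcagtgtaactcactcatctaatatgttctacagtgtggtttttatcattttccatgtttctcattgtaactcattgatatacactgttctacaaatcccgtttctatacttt
In the window at chr11:41632576-41632775, capitals mark runs of CA.
CA-type repeat: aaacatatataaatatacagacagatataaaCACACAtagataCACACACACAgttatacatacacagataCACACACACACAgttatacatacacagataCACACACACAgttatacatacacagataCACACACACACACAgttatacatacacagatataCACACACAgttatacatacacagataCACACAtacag
In the window at chr15:75085769-75085968, capitals mark a tract with only pyrimidines on the printed strand and only purines on the other.
A/G repeat: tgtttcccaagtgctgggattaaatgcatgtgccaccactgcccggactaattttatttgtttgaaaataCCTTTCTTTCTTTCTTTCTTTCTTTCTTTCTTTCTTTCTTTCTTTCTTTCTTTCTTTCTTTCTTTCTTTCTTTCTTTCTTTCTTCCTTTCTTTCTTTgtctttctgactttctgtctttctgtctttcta

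Repeats made up most of the shared sites, as they did of PU.1 summits in general. More than 50% of the bases were masked as repeats in the reference in 762 of the 842 windows (90.5%, exact 95% interval 88.3 to 92.4%). The other 7917 PU.1 summits had 82.6%, a difference of 7.88 percentage points (Newcombe 95% interval 5.56 to 9.87), and the summits with neither BATF nor Input had 85.2%. The share was 27.8% in 1684 windows placed 5000 bp to either side of the shared sites. It was 28.1% in 255949 windows spaced every 10000 bp along the genome. Simple repeats, with more than 50% of bases equal to the base 1 to 6 bp before them, filled 534 windows (63.4%, 60.1 to 66.7%), against 44.8% of the other PU.1 summits, a difference of 18.6 points (15.1 to 22.0). With a limit of 70% of bases the share of the shared sites was 27.2%. At the limit of 50%, the flanking windows had 2.85% and the genome windows 2.52%. These intervals, and all others below, cover counting error only, and neighbouring sites are not independent.

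The 842 windows were assigned to 8 groups of sequence, in a fixed order, after a first look at them. Telomeric repeats numbered 57 (6.77% of the sites), satellite-like windows 35 (4.16%), CA-type repeats, whose unit begins with AC, 319 (37.9%) and A/G repeats 130 (15.4%). Another 28 windows held other simple repeats, 29 were unmasked and rich in GC, 146 were multicopy sequence and 98 were none of these. Multicopy windows are those outside simple repeats whose median 36-base word occurs at least 100 times in the genome. That median, taken over the 146 windows, was 4072 copies. Among the simple repeats the commonest unit was AC (179 sites), followed by AACCCT, which is the telomeric hexamer (57), AAAG (56), ACACAT (50), AAG (44) and ACAT (40).

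Telomeric and satellite-like sequence was more frequent at the shared sites than at the other PU.1 summits. Telomeric repeats formed 6.77% of the shared sites and 0.328% of the 7917 other PU.1 summits, a difference of 6.44 points (4.93 to 8.34). Satellite-like windows formed 4.16% and 0.126%, a difference of 4.03 points (2.87 to 5.60). CA-type repeats were also more frequent, by 13.0 points (9.68 to 16.5), whereas the difference for A/G repeats was 0.270 points with an interval from -2.15 to 2.98. A/G repeats were more frequent at the shared sites than with BATF only (7.67 points, 4.77 to 10.7) or Input only (6.65 points, 3.98 to 9.51), and less frequent than with neither (-3.62 points, -6.16 to -0.811). Among the 726 shared sites without a nearby Ig summit, the telomeric share was 3.86% and the satellite-like share 0.275%. Counted the other way, 57 of all 83 telomeric PU.1 summits were shared with BATF and Input (68.7%, exact 95% interval 57.6 to 78.4%), and 35 of the 45 satellite-like ones (77.8%, 62.9 to 88.8%). The background share over all PU.1 summits was 9.61%, and it was 14.0% for CA-type, 9.77% for A/G, 7.85% for multicopy and 2.64% for GC-rich windows.

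**Figure D1:**
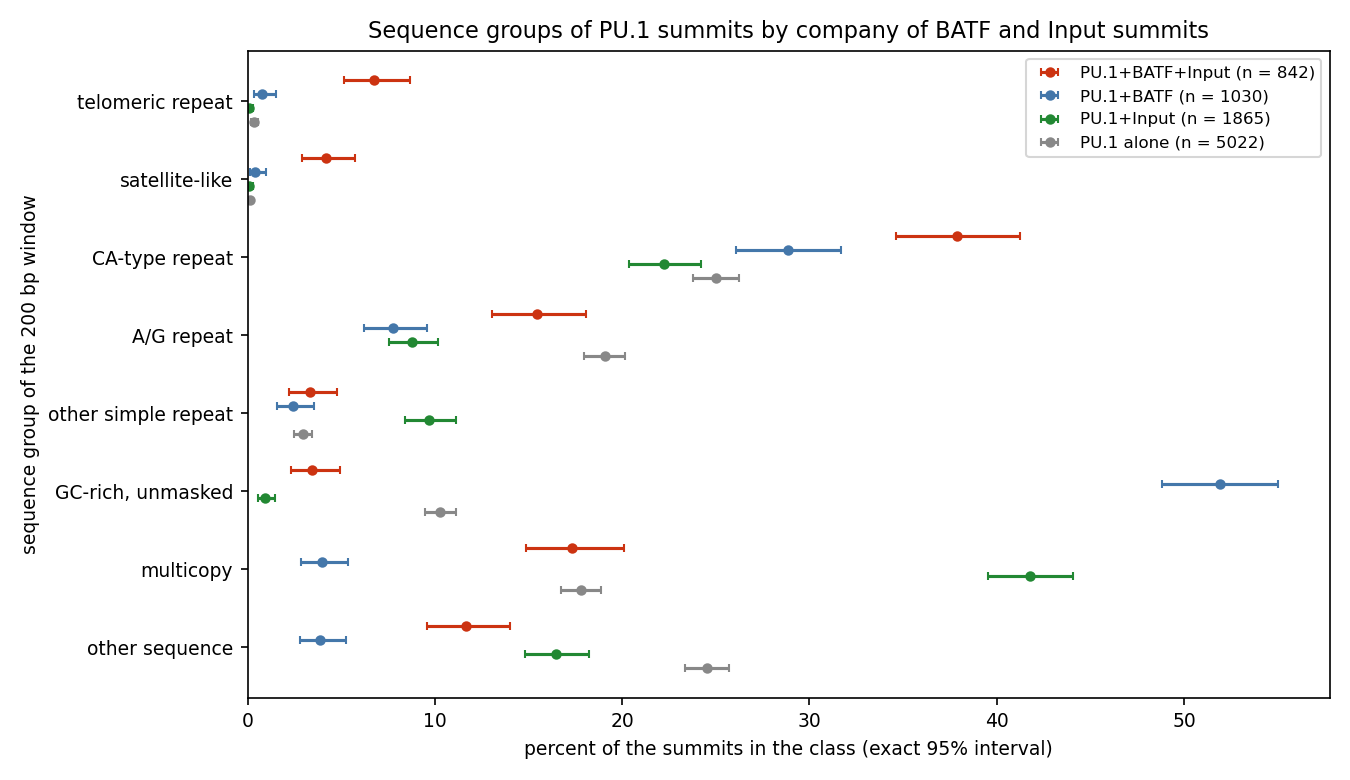
Percent of PU.1 summits in each of the 8 sequence groups, for sites shared with BATF and Input (n = 842), with BATF but not Input (n = 1030), with Input but not BATF (n = 1865) and with neither (n = 5022); points are shares and bars exact 95% intervals. Telomeric and satellite-like windows reached 6.77% and 4.16% in the shared sites and were under 1% in the other classes, while GC-rich windows reached 51.9% in the class with BATF but without Input.

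Many of the sites that PU.1 shared with BATF but not with Input were of another kind. Of these 1030 sites, 535 (51.9%) were GC-rich and unmasked, against 29 of the 842 shared sites (3.44%), a difference of -48.5 points (-51.7 to -45.1). Their median GC content was 77%, against 40% at the shared sites. A promoter, here the 1000 bp upstream of an annotated transcription start, held 342 of them (33.2%) but only 32 of the shared sites (3.80%). Masked sequence was found at 44.3% of them, 46.2 points less than at the shared sites (42.5 to 49.7). CA-type repeats still formed 28.8% of them and simple repeats 39.8%, against 37.9% and 63.4% of the shared sites. The sites with Input but not BATF lay nearer to the shared sites in masked sequence (96.9%) and were more often multicopy (41.8%, against 17.3% of the shared sites).

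The PU.1 score, which ranks a summit within its own library, ran from 1.39 to 436 over the shared sites with a median of 6.70. The BATF scores there ran from 1.41 to 429 (median 5.59) and the Input scores from 1.95 to 346 (median 8.36). The shared sites held 94 of the 100 highest PU.1 scores on these chromosomes. In the other classes the median PU.1 score was 4.26 with BATF only, 4.26 with Input only and 3.61 with neither. Across the 842 sites, Spearman's rho was 0.67 between PU.1 and BATF scores, 0.71 between PU.1 and Input scores and 0.63 between BATF and Input scores, as a description of values taken at the same places. Input had the highest of the 3 scores at 474 sites, PU.1 at 215 and BATF at 153. Scores grow with the depth of a library, which is unknown, so this order does not compare amounts of DNA.

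**Figure D2:**
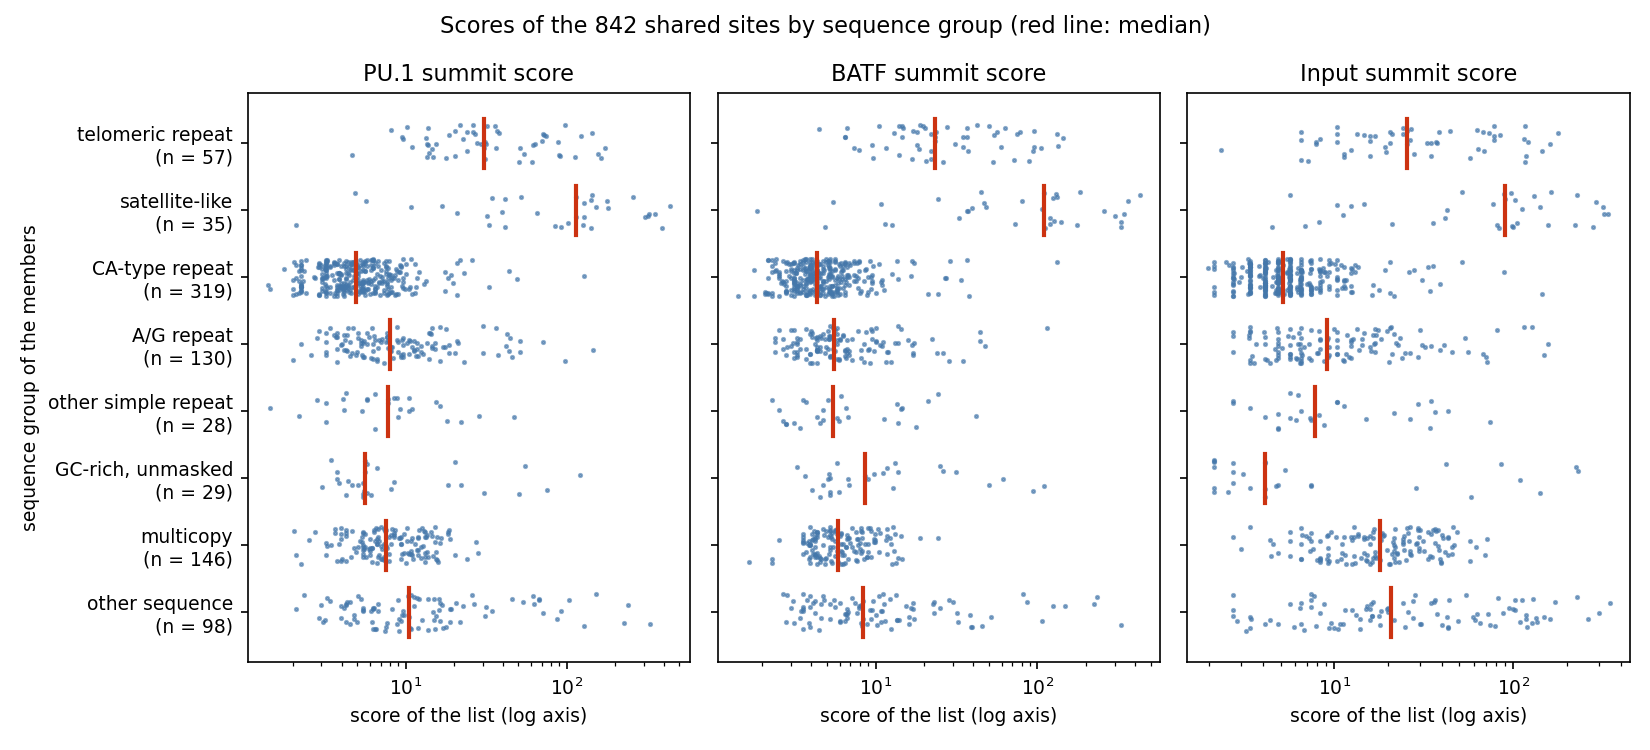
Score of the PU.1, BATF and Input summit (log axes) at each of the 842 shared sites, by sequence group; each point is a site and red lines are medians. Satellite-like sites have the highest medians (113, 110 and 90.4), telomeric sites follow, and CA-type sites have the lowest medians for PU.1 and BATF (4.92 and 4.37).

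Satellite-like sites had the highest median scores of the 8 groups in each of the 3 libraries. Their median was 113 for PU.1, 110 for BATF and 90.4 for Input, and 11 of the 20 shared sites with the highest PU.1 scores belonged to them. The summit at chr9:35305402 had the highest PU.1 score of the list. Its scores were 436 for PU.1, 429 for BATF, 338 for Input, 354 for goat Ig and 377 for rabbit Ig. The intergenic site at chr4:64497886 scored 390, 362, 292, 193 and 223 in the same order of libraries. At chr12:67059385, in an intron of Mdga2, which encodes a neuronal surface protein, the scores were 350, 345, 278, 229 and 248. All 5 lists were thus high at these places, those of the control antibodies included. The intergenic site at chr3:56575601 scored 325, 328, 316, 146 and 166. The intergenic site at chr12:3109939, near the centromeric end of the chromosome, scored 319, 328, 320, 354 and 340.

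The satellite-like windows matched the arrays with a median identity of 83.1% over a median of 189 bases (range 68.8 to 100% and 45 to 206 bases). In 23 of the 35 windows every 75-base word, the length of the reads, occurred at only 1 place of the assembly. Copies in the cells that the assembly lacks were not counted. Genes around them included Ank1 (chr8:23095600, promoter), which encodes the membrane protein ankyrin 1, with 306 for PU.1, 299 for BATF and 227 for Input. In an intron of Cdk5rap2, a centrosome gene, the site at chr4:70378174 had 177, 176 and 142. In an intron of Litaf, the site at chr16:10975138 had 127, 107 and 97.1. In the promoter of Oasl1, an interferon-induced gene, the site at chr5:114922515 had 84.2, 72.6 and 90.4. At the start of chromosome 9, 4 sites had an identity of 100% because they lie in the arrays that served as the reference. Their PU.1 scores ran from 2.10 near Gm11168 (chr9:3004190) to 39.6 in an exon of Gm26870 (chr9:3037965). Another site there, in the promoter of Gm10722 (chr9:3000660), aligned with 95.5% identity and had a PU.1 score of 32.97.

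A match to the CENP-B box, searched on both strands as TTCG, 7 bases with A as the fifth, and CGGG, was present in 4 of the 842 windows (0.475%, exact 95% interval 0.130 to 1.21%) and in 2 of the 7917 other PU.1 windows (0.0253%, 0.00306 to 0.0912%). Both of the latter lay in GC-rich windows with PU.1 scores of 4.05 and 3.19. The sites among the shared ones were chr6:103649201 in Chl1 (PU.1 330, BATF 328, Input 346, goat Ig 351, rabbit Ig 340), chr9:24542090 (PU.1 228, BATF 233, Input 227), chr2:98662601 in Gm10801 (127, 125 and 102) and chr2:98665060 (104, 107 and 102). All 4 also had a goat Ig and a rabbit Ig summit within 500 bp. Of 574 such matches on chr1 to chr19 and chrX, 7 (1.22%) lay within 500 bp of a shared site. Another site with high scores and no match to the 234 bp arrays was chrX:76598947, in an intron of Cldn34d. It had 241 for PU.1, 223 for BATF and 302 for Input. No minor satellite reference was searched, so satellite sequence of other kinds is not counted as satellite-like.

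Telomeric sites came next. Their PU.1 scores had a median of 30.5 (range 4.66 to 172), their BATF scores a median of 23.2 and their Input scores a median of 25.4. Among the strongest were chr12:93577064 (163 for PU.1, 133 for BATF, 161 for Input) and chr5:147611518 in an intron of Flt1, a VEGF receptor gene (156, 143 and 145). A further one lay in an intron of Lama1, a laminin gene (chr17:67741483, 123, 95.9 and 120). Most were not at the ends of chromosomes. Of the 57, 42 lay more than 1 Mb from the first or last sequenced base and more than 10 kb from an assembly gap. Within 1 Mb of such an end lay 15 of the 57, while 71 of all 842 shared sites (8.43%) did. Among the 15, chr2:182012914 lay 310 bp from the last sequenced base (144 for PU.1, 105 for BATF, 115 for Input). In the 57 windows the hexamer occurred 8 to 33 times (median 20). In the 26 telomeric PU.1 windows that were not shared it occurred 6 to 21 times (median 13), and their longest uninterrupted run had a median of 11.5 copies against 11 at the shared sites.

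Only some of the reference loci with the same repeats had a summit. Uninterrupted telomeric stretches of at least 4 copies formed 299 loci on chr1 to chr19 and chrX. PU.1 summits were found within 500 bp at 84 of them (28.1%), a BATF summit at 71 (23.7%), an Input summit at 62 (20.7%), a rabbit Ig summit at 26 (8.70%) and a goat Ig summit at 22 (7.36%). For stretches of at least 10 copies these shares were 50% for PU.1, 38.9% for BATF and 35.2% for Input, of 108 loci. CA stretches of at least 10 copies formed 226286 loci, of which 1124 (0.497%) had a PU.1, 595 (0.263%) a BATF and 792 (0.350%) an Input summit. Of 22193 loci with at least 10 copies of GAAA, 3.60% had a PU.1, 0.879% a BATF and 1.56% an Input summit. The CA-type shared sites, although the largest group, were thus a small part of such repeats.

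**Figure D3:**
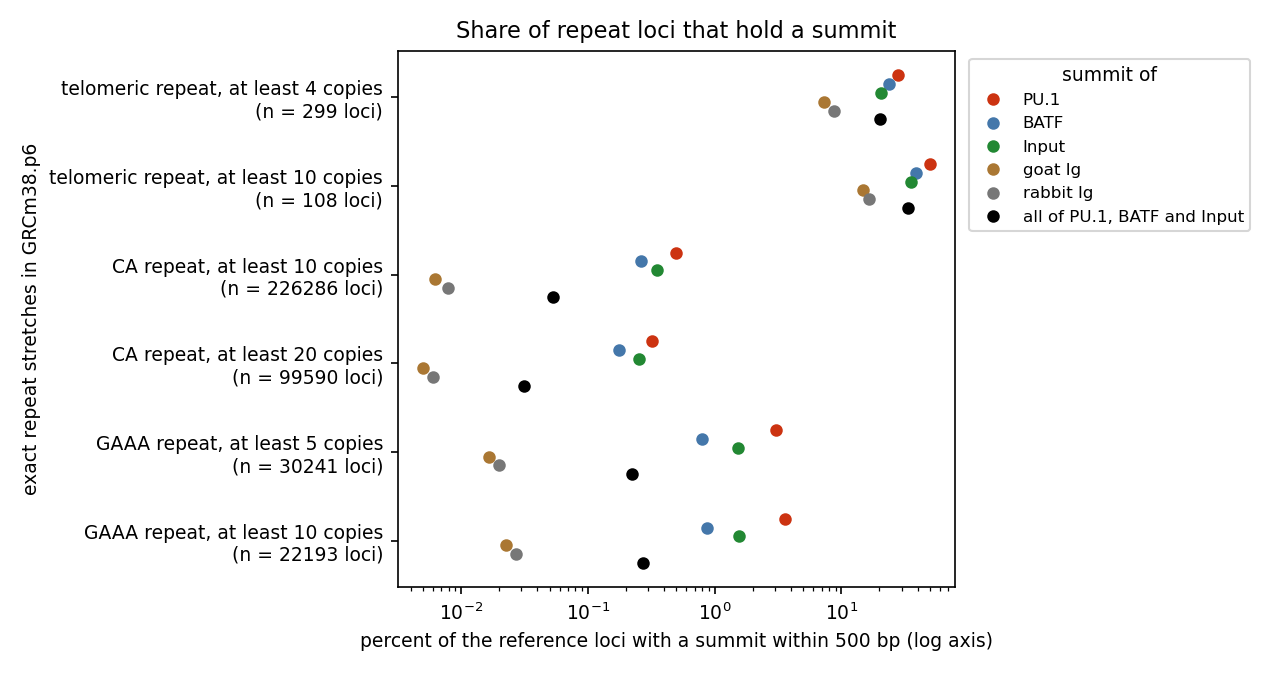
Percent of reference loci with an exact repeat stretch that had a summit of each list within 500 bp, on a log axis, for telomeric, CA and GAAA repeats at 2 minimum lengths. Telomeric loci reach 50% for PU.1, whereas CA loci stay below 1% in every list.

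The Ig libraries, which the choice of sites did not use, followed the same places. A goat or rabbit Ig summit lay within 500 bp of 116 shared sites (13.8%, exact 95% interval 11.5 to 16.3%), against 1.64% of all PU.1 summits and 28 of the 7917 others (0.354%), a difference of 13.4 points (11.3 to 15.9). Goat Ig was near 86 shared sites, rabbit Ig near 101 and both near 71. With BATF but not Input the share was 1.36%, with Input but not BATF 0.483% and with neither 0.0996%. Seen from the controls, 86 of the 157 goat Ig summits on these chromosomes (54.8%) and 101 of the 160 rabbit Ig summits (63.1%) were within 500 bp of a shared site.

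Ig summits were most frequent at satellite-like and telomeric sites. They were near 33 of 35 satellite-like sites (94.3%, 80.8 to 99.3%), 29 of 57 telomeric sites (50.9%, 37.3 to 64.4%), 23 of the 98 sites in no named group (23.5%, 15.5 to 33.1%) and 5 of 29 GC-rich sites (17.2%, 5.85 to 35.8%). The shares were lower in the other groups, with 2 of 28 sites of other simple repeats (7.14%), 7 of 146 multicopy sites (4.79%), 12 of 319 CA-type sites (3.76%, 1.96 to 6.48%) and 5 of 130 A/G sites (3.85%, 1.26 to 8.75%). The share was 0.948% in the 211 shared sites with the lowest PU.1 scores and 46.9% in the 211 with the highest. Of the 50 sites with the highest PU.1 scores, 49 were near an Ig summit, and 21 of the 50 were satellite-like and 14 telomeric. At the 71 sites near both Ig libraries the median score was 91.4 for PU.1, 88.8 for BATF, 102 for Input, 19.4 for goat Ig and 21.4 for rabbit Ig. At the 726 sites near neither, it was 6.15 for PU.1, 5.22 for BATF and 7.28 for Input. Without the satellite-like and telomeric sites, 7.20% of the remaining shared sites were near an Ig summit.

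**Figure D4:**
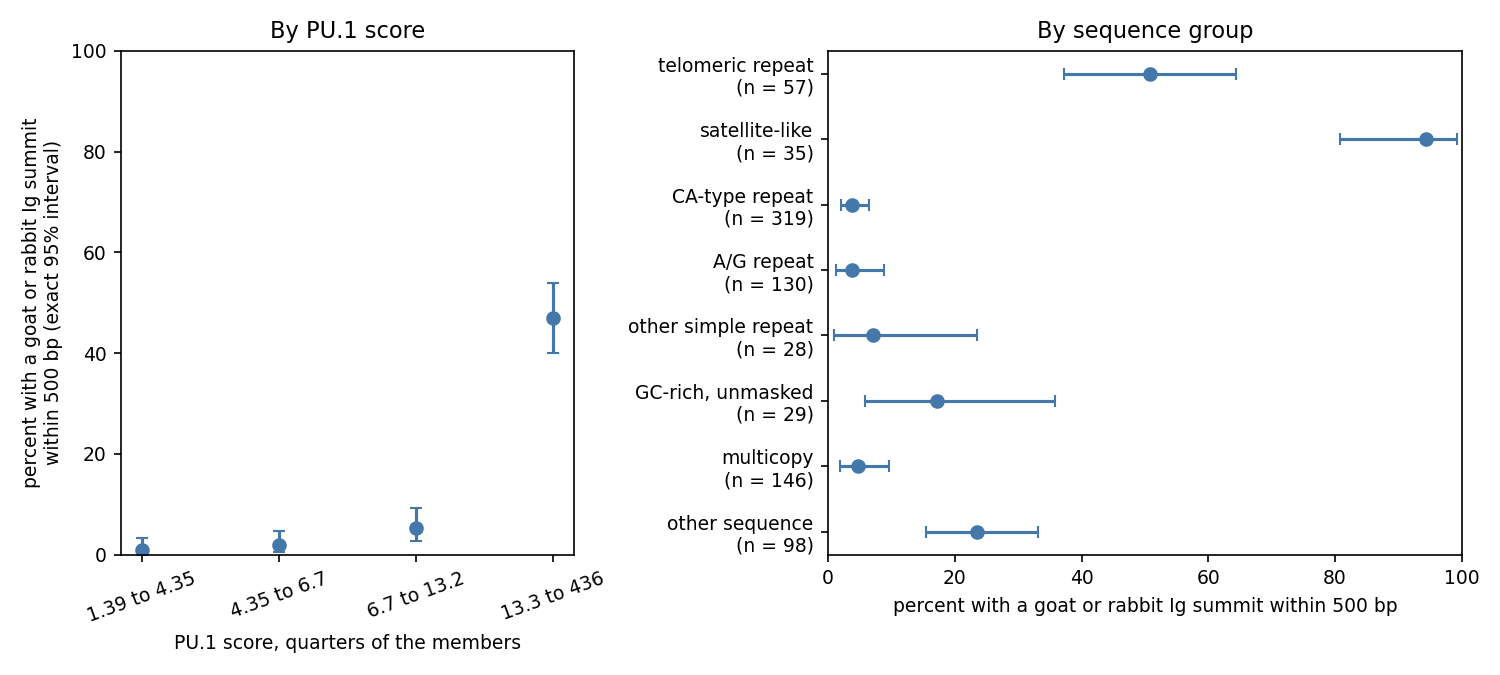
Percent of the shared sites with a goat or rabbit Ig summit within 500 bp, in 4 bins of the PU.1 score with equal numbers of sites (left) and by sequence group (right); points are shares and bars exact 95% intervals. The share reaches 46.9% in the highest bin and 94.3% at satellite-like sites, and is 3.76% at CA-type sites.

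CA-type sites had the lowest median scores for PU.1 and BATF. The median score was 4.92 for PU.1, 4.37 for BATF and 5.17 for Input, and they made up 64.0% of the 211 sites with the lowest PU.1 scores and 7.11% of the 211 with the highest. Within them Spearman's rho between PU.1 and BATF scores was 0.27 (319 sites), and it was similarly low, 0.32, at the 146 multicopy sites. It was 0.91 at the 57 telomeric and 0.99 at the 35 satellite-like sites, and from 0.60 to 0.85 in the other groups. A/G repeats had higher median scores than CA-type sites, with 8.03 for PU.1, 5.52 for BATF and 9.14 for Input. At multicopy sites the median score was 18.1 for Input, 7.53 for PU.1 and 5.84 for BATF, and Input had the highest of the 3 at 129 of 146 sites. Sites in no named group had medians of 20.8, 10.6 and 8.40 in the same order, with Input highest at 73 of 98. Over all 842 sites Input was highest at 474. Because depth is unknown, this order does not compare amounts of DNA.

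The summits of the 3 lists lay closest together in the same groups that had the highest scores. Over all shared sites the median distance from the PU.1 summit was 41 bp to the BATF summit and 42 bp to the Input summit. Both distances were at most 10 bp at 53 sites. The medians were 8 and 24 bp at telomeric sites and 10 and 16 bp at satellite-like sites, but 73 and 73 bp at CA-type sites. Distance did not follow score in every group, since multicopy sites, with a median PU.1 score of 7.53, had 22.5 and 26 bp. The 842 sites were matched to 834 different BATF summits and 837 different Input summits. Just inside the limit of 500 bp, the larger of both distances was 461, 462, 472, 482 and 483 bp at the 5 outermost shared sites, whose PU.1 scores were 4.05, 6.21, 2.73, 25.7 and 3.40. Just outside it was 520, 524, 529, 554 and 562 bp, with PU.1 scores of 5.43, 12.5, 3.98, 92.2 and 7.05.

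**Figure D5:**
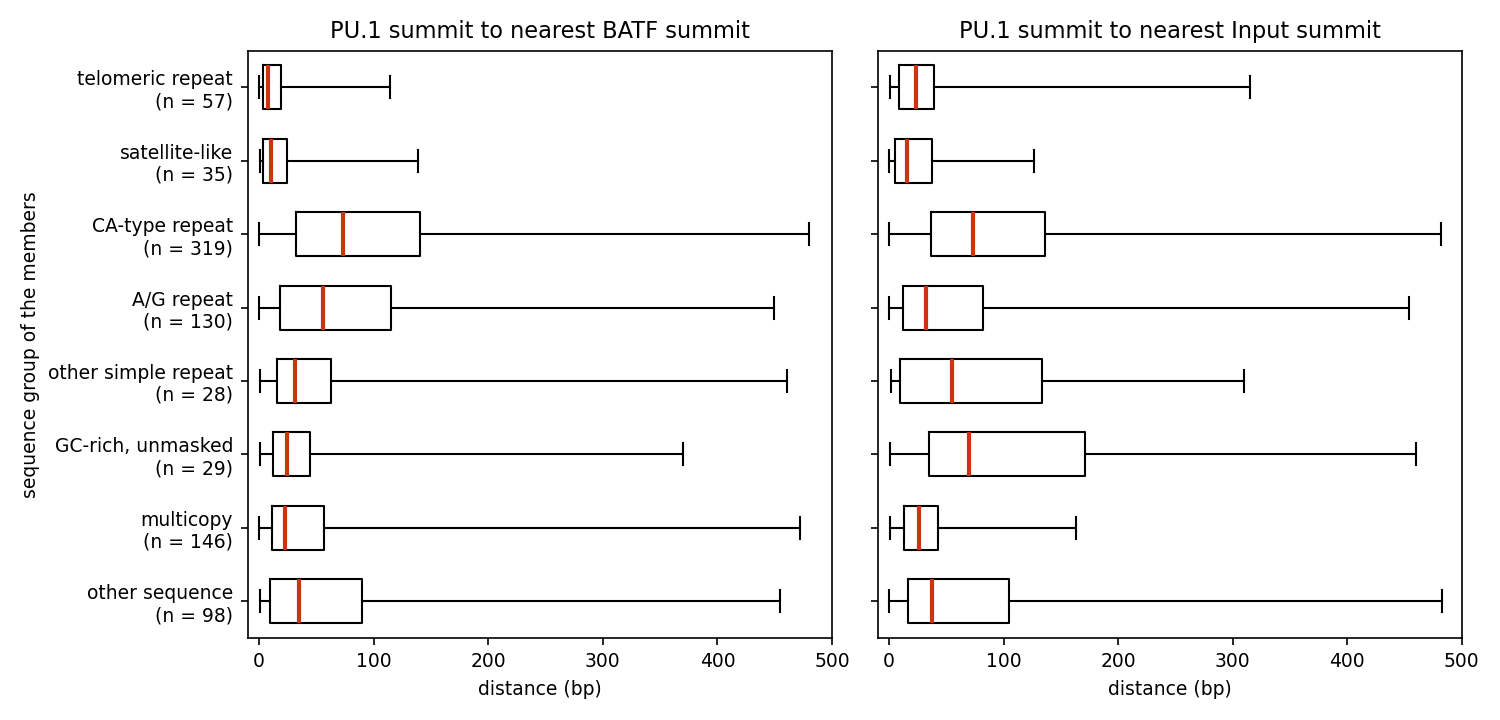
Distance in bp from the PU.1 summit to the nearest BATF summit (left) and Input summit (right) at the shared sites, by sequence group; boxes span the quartiles, red lines are medians and whiskers the full range. Medians are 8 to 24 bp at telomeric and satellite-like sites and 73 bp at CA-type sites.

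Along the chromosomes the shared sites were dispersed. They formed 824 loci when neighbours up to 1000 bp apart were joined, and 807 of these held 1 site. The locus with most sites, 3, lay at chr16:3114982-3116418, near the start of the sequenced chromosome. The next loci, with 2 sites each, were at chr13:119599074-119599963 (highest PU.1 score 67.1), chr17:13590597-13591068 (45.9), chr13:3373221-3374135 (42.4) and chr11:54140161-54140638 (30.3). The density ranged from 0.226 sites per Mb on chromosome 6 to 0.441 on chromosome 10. Sites within 1 Mb of the first or last sequenced base of a chromosome numbered 71 (8.43%), against 1.74% of the other PU.1 summits, a difference of 6.69 points (4.97 to 8.78). Within 10 kb of an assembly gap lay 52 (6.18%), against 0.417% of the others (difference 5.76 points, 4.31 to 7.60). These 52 had a median PU.1 score of 27.4, and 25 of them were near an Ig summit. In no named group were 28 of the 52, while 15 were telomeric and 5 satellite-like.

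Longer tandem arrays, with over 70% identity between bases 20 to 400 bp apart, held 10 shared windows (1.19%). They held 15 of the 7917 other PU.1 windows (0.189%), a difference of 0.998 points (0.443 to 1.99). At 80% identity the share of the shared sites was 0.238%. A single-copy 75-base word was lacking in 72 windows (8.55%, 6.75 to 10.6%), against 9.40% of the other PU.1 windows, a difference of -0.846 points whose interval spans 0 (-2.68 to 1.33). The difference was 5.25 points (3.12 to 7.53) from the sites with BATF only and -10.05 points (-12.6 to -7.37) from those with Input only. With 36-base words, 18.2% of the shared windows lacked a single-copy word. In 423 (50.2%) every 75-base word was single-copy, against 56.7% of the others (difference -6.50 points, -10.04 to -2.96). Multicopy windows accounted for 47 of the 72. A further 3 shared sites matched the mitochondrial genome, at chr1:24612524, chr1:24614602 and chr12:97061600 (0.356%), against 2 of the 7917 other PU.1 summits (0.0253%), a difference of 0.331 points (0.0867 to 1.02). Gm26917, a gene with ribosomal RNA sequence, was matched by 1 shared site (0.119%), at chr17:39844326, and by 3 of the other PU.1 summits (0.0379%), all of them with BATF but not Input. That difference was 0.0809 points, with an interval from -0.0414 to 0.632.

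For PU.1 and BATF only the exact words given below were searched, and no other forms of their motifs. These words were rare at the shared sites and at the other PU.1 summits alike. The PU.1 motif GAGGAAGT was present, on either strand, in 6 of the 842 windows (0.713%, 0.262 to 1.54%), in 42 of the 7917 other PU.1 windows (0.531%) and in 1.15% of the genome windows. The shared sites differed from the other summits by 0.182 points, with an interval from -0.246 to 1.03. The AP-1 motif TGACTCA or TGAGTCA was present in 2 (0.238%, 0.0288 to 0.855%), against 0.556% of the other PU.1 windows (difference -0.318 points, -0.574 to 0.322), 3.12% of the genome windows and 3.62% of the flanking windows. The sites were chr16:5709213, in a telomeric window, and chr13:3373221. In all, 5 of the 1030 sites with BATF but not Input had the AP-1 motif (0.485%). The degenerate IRF8 motif is the word that the paper found most often in its own IRF8 ChIP-Seq data. It has T at every other position and allows G at each position between, so an unbroken TG repeat matches it. Whether its matches mark IRF8 binding was not tested. This motif was found in 304 shared windows (36.1%, 32.9 to 39.5%), against 5.71% of the genome windows. The other PU.1 summits had it in 33.4% of windows and those with neither BATF nor Input in 38.4%, and the difference from all others was 2.66 points with an interval from -0.685 to 6.12. It was 7.76 points (3.50 to 11.999) from the sites with BATF only and 13.0 points (9.31 to 16.8) from those with Input only. Of these 304, 229 were CA-type repeats and 60 A/G repeats, and 0 were satellite-like, GC-rich or multicopy.

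Shared sites lay between genes in 453 cases (53.8%), in introns in 338 (40.1%), in promoters in 32 (3.80%) and in exons in 19 (2.26%). Of the other PU.1 summits, 48.1% lay between genes, 36.7% in introns, 9.79% in promoters and 5.37% in exons. The promoter share differed by -5.99 points (-7.28 to -4.35), the intron share by 3.45 points (0.0199 to 6.96) and the intergenic share by 5.65 points (2.10 to 9.17). They fell in the body or promoter of 298 protein-coding genes. The highest PU.1 scores were those of Mdga2, Chl1, Ank1, Cldn34d, 2210408I21Rik, Cdk5rap2, Flt1, Spag17, Ankar, Mamdc2, Gm10800, Litaf, Gm10801, Lama1 and Nkain3. Their scores fell from 350 at Mdga2 to 91.4 at Nkain3, and all 15 sites had both goat Ig and rabbit Ig summits nearby. A protein-coding exon or promoter held 40 sites, and 19 of these were GC-rich. The 10 with the highest PU.1 scores were in Ank1, Gm10800, Gm10801, Oasl1, Gm10722, Xkrx, Ubtfl1, Hes3, Ttll10 and Sympk, of which the first 5 were satellite-like. Xkrx held a telomeric repeat in an exon (PU.1 30.8, BATF 17.9, Input 32.9), and the promoter of Hes3, a Hes-family repressor gene, a CA-type repeat (19.6, 21.1 and 26.3).

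The share of genes of the helper T cell programme and house-keeping genes with a shared site nearby was close to that of all protein-coding genes. Within 50000 bp of the gene body, 4 of 91 genes on 8 lists of cytokines, signalling genes, transcription factors and house-keeping genes had a shared site (4.4%), against 1019 of 21755 protein-coding genes (4.68%). Those 4 genes were Il9, Smad4, Batf and Nfatc2, and none of the 4 sites was near an Ig summit. Near Il9, the defining Th9 cytokine, the site lay 42585 bp from the gene in a CA-type repeat of an Fbxl21 intron, with 7.02 for PU.1, 3.91 for BATF and 7.24 for Input. The site 4273 bp from Batf itself was an A/G repeat with 3.71 for PU.1, 3.93 for BATF and 6.13 for Input. In an intron of Smad4, which encodes the common mediator of TGF-β signals, the site was multicopy sequence with 8.20, 5.30 and 38.4. In an intron of Nfatc2, a calcium-dependent factor of T cell activation, it was a CA repeat with 2.25, 3.12 and 2.72. No Th2 cytokine gene, lineage factor or house-keeping gene on these lists had a shared site in this range.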

How the data were processed

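The authors deposited, per library, single-base summits and a score for each. This deposited score was taken to be −log10 q, since the summits carry MACS2 names and no score lies below 1.30, but its scale is not given in the sources used here, and the study's methods name FindPeaks for peak calling. It was used to rank summits within a list. Peak width, controls of the caller and read totals are not given either, so depth is unknown. The submitters' processing notes name Bowtie2 and mm10, and the methods name paired-end reads of 75 bp. No replicates existed, so no p-value was computed and shares carry exact (Clopper-Pearson) or, for differences, Newcombe intervals of 95%. Summits on chr1 to chr19 and chrX were placed on the soft-masked GRCm38.p6 reference, whose coordinates are those of mm10, and on GENCODE M21 genes. All coordinates are 1-based.

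Windows of 200 bp were scored for masked bases, simple repeats (units of 1 to 6 bp), tandem identity over 2000 bp, copies of 75- and 36-base words in the assembly, and motifs on both strands. GC-rich windows have at least 65% GC and under 25% masked bases. Satellite-like windows matched, with blastn 2.17.0 at an E-value of 1e-05, the arrays with a 234 bp period around PU.1 summits. Gaps are runs of at least 100 unknown bases. The counting was tested on simulated data. Python 3.11.15, numpy 2.4.6, pandas 2.3.3, scipy 1.17.1, numba 0.67.0 and matplotlib 3.10.9 were used.

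The sites, gene lists and sequence groups were chosen with earlier results of these data known. Sites were named by the 5 highest scores of each list, by both Ig summits, by the loci with most sites and by nearness to the 500 bp limit. Genes were named by the 15 highest PU.1 scores, by the 10 highest in an exon or promoter, and by the gene lists. Other items were singled out after their values were seen. Example windows of some sequence groups are not reported here, and IRF8, IRF4 and ETV6 libraries were not analysed here. Alternatives covered distances, windows, thresholds, word length, gene sets and 1 site per locus.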

Additional observations from a re-analysis of the deposited data

How the results depend on the processing

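No paired analysis was possible because each antibody has 1 library. Of 42 alternatives, 26 left a share within its 95% interval, a median within its own interval or a count within 1.5 times, and 16 moved it. No alternative was run for the differences from other PU.1 summits, flanks or genome windows. The cause of these moves was not tested beyond what each setting removes. The number of shared sites was 531 with a limit of 100 bp and 424 when only summits above the median score of their list were used. The masked share was 76.0% in 1000 bp windows and 82.9% with a limit of 75%. The simple-repeat share was 27.2% with a limit of 70%, 50.7% with scores above the list medians and 66.9% without sites near Ig summits. With 36-base words, 18.2% of sites had no single-copy word. Long arrays were 0.238% at 80% identity. With protein-coding genes alone, 60.8% of sites lay between genes. The AP-1 share was 0% in 100 bp windows. The alternatives from here to the 100 kb gap limit were chosen after seeing the data. Without satellite-like and telomeric sites, 7.20% were near an Ig summit. The telomeric share was 4.63% with a simple-repeat limit of 70% and 3.86% without sites near Ig summits, and the satellite-like share 0.275% without them. Within 100 kb of an assembly gap lay 9.50%. Taking 1 site per locus (824 sites) was planned for the Ig, masked, simple-repeat, single-copy, tandem and intergenic shares and both distances. For the telomeric, satellite-like and gap shares it was chosen after seeing the data. Each of these values stayed within its interval. Without read totals, the score at which a summit enters a list cannot be tied to an amount of DNA, and a place without a summit sets no upper limit on its signal.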
